A study of Homo sapiens with 8 samples.

Results

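The 10 genes described here control the step from G1 into S phase: the D-type cyclins CCND1, CCND2 and CCND3, the kinase CDK6, the CIP/KIP inhibitors CDKN1A, CDKN1B and CDKN1C, and the INK4 inhibitors CDKN2B, CDKN2C and CDKN2D. They were picked out by gene symbol, as 10 of the 61228 gene names in the count tables, and 9 of them passed the filter on low counts. RNA was measured in 8 libraries from H1975 and HCC44, established human lung cancer cell lines, both with the genotype label WT. In each line 2 libraries came from cells given DMSO, the solvent, and 2 from cells given ACBI1 for 96 hours. ACBI1 is a degrader, a molecule that brings the ATPase subunits of the SWI/SNF chromatin remodelling complex to a ubiquitin ligase. The labels give its concentration as 1 mM, a dose well beyond the range in which degraders are normally used, and the unit may be in error. The labels do not say that replicates came from separate cultures, so p-values measure only the spread between these samples, which may be technical.

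As background, D-type cyclins are made in response to growth signals and activate CDK6 and its close relative. The active kinases phosphorylate the retinoblastoma protein, which then releases E2F factors to switch on the genes of DNA replication. INK4 proteins bind the kinase itself and keep the cyclin out, whereas CIP/KIP proteins bind cyclin and kinase together and block above all the later CDK2 complexes. CDKN1A is the best known target of p53, CDKN2B is induced by TGF-beta signals, and CDKN2C and CDKN2D transcripts follow the cell cycle in many cells. Because a bulk library mixes cells of all phases, a change in the share of cells in a phase cannot be told apart from a change of RNA per cell.

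Each library held 62467286 to 70455517 counts on genes, and replicates of a group correlated at 0.9923 to 0.9937 (Pearson's r of log2 values, across genes). The 6 epithelial markers, led by KRT7, were detected in all groups, with summed levels of 5137 to 5393 CPM (counts scaled to a common library size) in H1975 with DMSO, 2331 to 2808 with ACBI1, 940 to 980 in HCC44 with DMSO and 1199 to 1658 with ACBI1. With DMSO all 6 were lower in HCC44 than in H1975, with EPCAM at 10.6 against 171 CPM and CDH1 at 4.24 against 224 CPM. The 5 mesenchymal markers, led by VIM, summed to 2264 to 2868 CPM in H1975 with DMSO and 961 to 1063 with ACBI1. In HCC44 they summed to 494 to 596 CPM with DMSO and 674 to 882 with ACBI1. The 7 blood cell markers summed to at most 1.13 CPM in any library, with CD3E and MS4A1 at 0 in all groups. The 5 endothelial markers summed to at most 4.02 CPM. Of the 6 fibroblast markers DCN was at 0 in all groups, and COL1A1 made up nearly all of a summed level of 48.9 to 72.1 CPM in H1975 with DMSO, 25.6 to 30.5 with ACBI1, 74.3 to 92.7 in HCC44 with DMSO and 207 to 411 with ACBI1.

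Several of the inhibitors moved, whereas CCND1, CCND3 and CDK6 did not pass the test in either line (CDK6 in HCC44 did with a replicate block). CDKN1A fell in both lines, with the largest fall of the 9 tested members in each, and CDKN1B fell in both by a smaller amount. The INK4 genes differed between the lines: CDKN2B and CDKN2C rose in HCC44, whereas in H1975 CDKN2B fell and CDKN2D rose. A gene was called when its Benjamini-Hochberg adjusted p in edgeR's quasi-likelihood test, over all 21307 genes tested, was under 0.05. In H1975 4 of 9 tested members were called (44.4%), 1 higher and 3 lower, where 31.3% of all genes tested were called, 14.6% higher and 16.7% lower. The H1975 count was lower when any 1 of that line's libraries was left out, and so were the calls over all genes. It was 2 with scaling by library totals, where 7507 of all genes were called, beside 6663 in the main fit. In HCC44 4 of 9 were called, 2 higher and 2 lower, where 34.9% of all genes tested were called, 17.5% higher and 17.4% lower. The members were thus called about as often as genes at large. The median member changed by -0.24 in H1975 and -0.08 in HCC44 on the log2 scale, beside -0.01 and 0.01 for all genes.

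**Figure D1:**
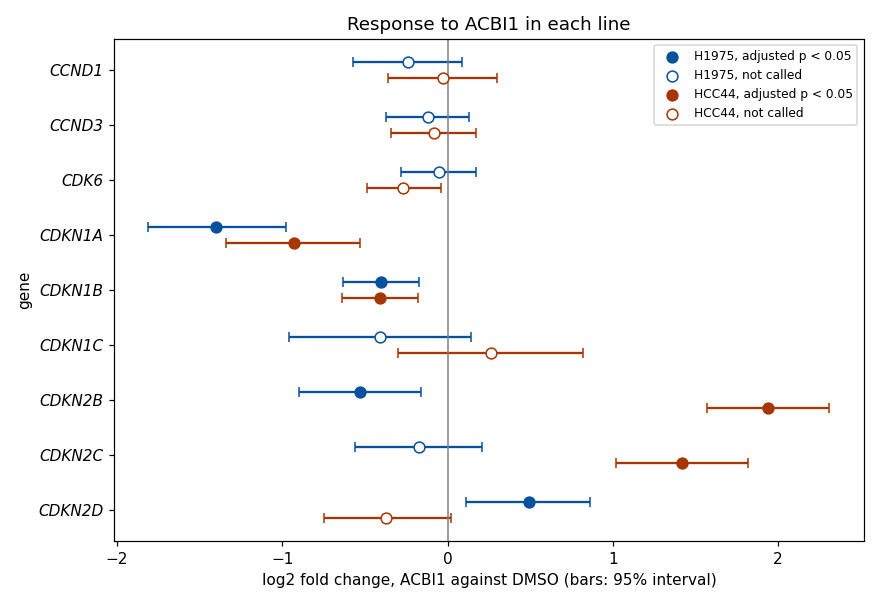
Response of the 9 tested members to ACBI1, as log2 fold change against DMSO (horizontal axis) with 95% intervals, in H1975 (blue) and HCC44 (red); filled points have an adjusted p under 0.05. CDKN1A and CDKN1B lie left of 0 in both lines, and CDKN2B lies at -0.53 in H1975 and 1.94 in HCC44.

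CCND1 encodes the D-type cyclin that dominates in many epithelial tumours. In H1975 it was at 363 and 312 CPM with DMSO and at 300 and 271 CPM with ACBI1. In HCC44 it was at 312 and 331 CPM with DMSO and at 260 and 369 CPM with ACBI1. The H1975 groups did not overlap, and the HCC44 groups did, with the ACBI1 libraries on either side of the DMSO libraries. Its log2 fold change was -0.24 ± 0.15 (SE; 95% interval -0.57 to 0.09; edgeR's quasi-likelihood test, adjusted p = 0.247) in H1975 and -0.03 ± 0.15 (-0.36 to 0.30; adjusted p = 0.903) in HCC44. The gene lies at chr11:69641087-69654474 on the plus strand of GRCh38 (GENCODE 29 annotation, also for the positions below). Antisense gene LTO1 shares 10.3% of its exon bases, and as the strand setting of the counting is not given in the sources used here, reads from the shared bases are uncertain.

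CCND3, the cyclin prominent in blood cells and muscle, lies at chr6:41934933-42050357 on the minus strand. It was at 42.1 and 40.3 CPM with DMSO and 38.7 and 37.1 CPM with ACBI1 in H1975. The HCC44 libraries held 27.8 and 23.7 CPM with DMSO and 25.4 and 23.1 CPM with ACBI1. The groups did not overlap in H1975 and overlapped in HCC44, and neither change passed the test. The log2 fold changes were -0.12 ± 0.11 (adjusted p = 0.457) and -0.08 ± 0.11 (adjusted p = 0.619, both edgeR).

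CCND2, the third D-type cyclin, was almost silent. No count was found in any of the 4 DMSO libraries, while the ACBI1 libraries held 10 and 8 counts in H1975 and 2 and 6 in HCC44. All 4 ACBI1 libraries were thus above all DMSO libraries, at levels of 0.133, 0.113, 0.032 and 0.0944 CPM. A floor of 3 counts over the DMSO group was set, a limit of 0.0227 CPM in H1975 and 0.0237 CPM in HCC44. The ratio of the ACBI1 level to that floor was 5.43 in H1975 and 2.68 in HCC44. It takes no account of error in the ACBI1 counts and is not a lower bound. The intervals cover counting error only, and the exact 95% lower limits of the ratios were 3.98 and 1.72. CCND2 failed the filter and has no test in the main fit. A fit without the filter gave it an adjusted p (edgeR) of 0.00282 in H1975 and 0.037 in HCC44. That fit gave CDKN1A in H1975 an adjusted p of 2.92e-35 (edgeR), beside 6.59e-04 in the main fit, at nearly the same fold change. Its p-values are thus not comparable with those of the main fit and were not read as a call. The gene lies at chr12:4273772-4305350 on the plus strand, and 13.8% of its exon bases belong also to AC008012.1 on the same strand, so counts this low are uncertain.

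CDK6, the kinase partner of the D-type cyclins, lies at chr7:92604921-92836594 on the minus strand. In H1975 it was at 111 and 117 CPM with DMSO and 109 and 111 CPM with ACBI1. In HCC44 the values were 154 and 187 CPM with DMSO and 136 and 147 CPM with ACBI1. In both lines the ACBI1 libraries were the lower ones, by a small margin in H1975. The log2 fold change was -0.05 ± 0.10 (95% interval -0.28 to 0.17; edgeR, adjusted p = 0.746) in H1975. In HCC44 it was -0.27 ± 0.10 (-0.49 to -0.04; adjusted p = 0.0648), which passed the threshold without DMSO replicate 1 (adjusted p = 0.0245) and with a replicate block (-0.26, adjusted p = 0.0115). The sign in H1975 turned with scaling by library totals, to 0.15.

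Among the CIP/KIP inhibitors, CDKN1A (the protein p21) changed the most. It was at 164 and 148 CPM with DMSO and 69.1 and 49.7 CPM with ACBI1 in H1975. In HCC44 it was at 145 and 109 CPM with DMSO and 72.5 and 60.2 CPM with ACBI1. The groups stood well apart in both lines. CDKN1A fell 2.63-fold in H1975, a log2 fold change of -1.40 ± 0.18 (95% interval -1.81 to -0.98; edgeR's quasi-likelihood test, adjusted p = 6.59e-04). It fell 1.91-fold in HCC44, a log2 fold change of -0.93 ± 0.18 (-1.34 to -0.53; adjusted p = 0.00372). The call held in both lines without each of the 8 libraries in turn. The response did not pass the test of a difference between the lines, at 0.46 (95% interval -0.11 to 1.03, adjusted p = 0.252, edgeR). Without the filter on low counts it did (adjusted p = 0.0167, edgeR). As described for CCND2, p-values of that fit are not comparable with those of the main fit. CDKN1A lies at chr6:36676460-36687339 on the plus strand, and the antisense RNA gene DINOL shares 4.79% of its exon bases.

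The sequence upstream of the listed RefSeq start of CDKN1A is printed because this gene fell in both lines. The printed stretch lies inside the GENCODE span of the gene, which begins at base 36676460. It is the part of the 250 bases before the RefSeq start (GRCh38.p14) that lies outside GENCODE exons, chr6:36678464-36678657 on the plus strand, with capitals at matches to GGGCGG, the core letters of the SP/KLF family motif, searched on both strands.
CDKN1A: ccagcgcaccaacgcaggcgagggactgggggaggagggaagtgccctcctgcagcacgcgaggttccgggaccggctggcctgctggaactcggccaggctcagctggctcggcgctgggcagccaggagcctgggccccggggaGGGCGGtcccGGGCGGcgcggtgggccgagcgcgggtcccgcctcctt
The stretch has a GC content of 76.8% and holds 2 such matches, where 33.8% of 35116 RefSeq promoter windows of the same length hold at least 1. Such matches are a description of the letters and not sites.

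CDKN1B (p27) holds cells in quiescence and is controlled largely through protein stability. Its levels in H1975 were 32.1 and 30.5 CPM with DMSO and 22.4 and 25 CPM with ACBI1. In HCC44 they were 44 and 45.3 CPM with DMSO and 32.4 and 34.8 CPM with ACBI1. All ACBI1 libraries lay below the DMSO libraries of their line. CDKN1B fell by nearly the same amount in both, with log2 fold changes of -0.40 ± 0.11 (edgeR, adjusted p = 0.0144) and -0.41 ± 0.10 (adjusted p = 0.0107). The difference between the lines was -0.01 (95% interval -0.34 to 0.32; adjusted p = 1, edgeR). In H1975 the call ended with scaling by library totals (log2 fold change -0.20, adjusted p = 0.159) and without DMSO replicate 1, DMSO replicate 2 or ACBI1 replicate 1 (adjusted p 0.0704 to 0.181). In HCC44 it ended without DMSO replicate 2 or ACBI1 replicate 1 (adjusted p = 0.071 and 0.0519). CDKN1B lies at chr12:12715058-12722371 on the plus strand. CDKN1A and CDKN1B were 2 of the 1508 genes called lower in both lines, which were 7.08% of all genes tested, and 0 of 9 tested members were called higher in both lines, where 5.83% of all genes tested were.

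CDKN1C (p57), an imprinted gene known from embryonic growth control, had low levels. They were 4.41 and 3.54 CPM with DMSO against 2.51 and 3.48 CPM with ACBI1 in H1975. In HCC44 the values were 2.43 and 2.81 CPM with DMSO and 2.61 and 3.67 CPM with ACBI1. The H1975 groups were separated by a narrow gap and the HCC44 groups overlapped. Its log2 fold changes were -0.41 ± 0.25 (edgeR, adjusted p = 0.247) and 0.26 ± 0.25 (adjusted p = 0.471), and the intervals, -0.96 to 0.14 and -0.30 to 0.82, leave room for changes of the size seen for CDKN1B. The gene lies at chr11:2883213-2885773 on the minus strand.

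**Figure D2:**
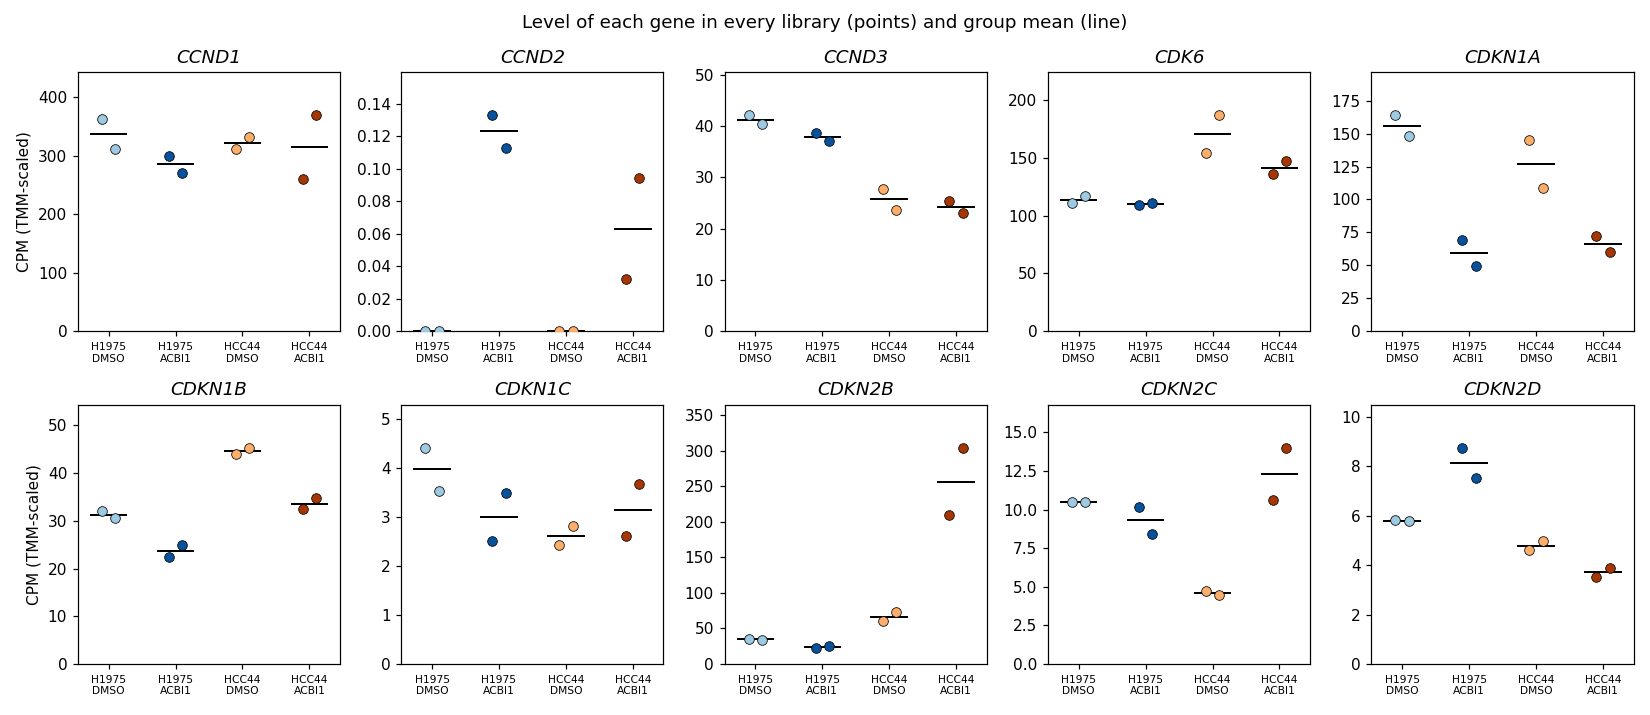
Level of each member in every library, in TMM-scaled CPM on linear axes from 0, 1 panel per gene; points are libraries of the 4 groups and lines are group means (n = 2). CDKN1A sits at 49.7 to 72.5 CPM in the 4 ACBI1 libraries and at 109 to 164 CPM in the 4 DMSO libraries, while CDKN2B reaches 209 and 304 CPM only with ACBI1 in HCC44.

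Among the INK4 inhibitors, CDKN2B (p15) moved in opposite directions in the 2 lines. In H1975 it was at 35.1 and 34.5 CPM with DMSO and at 22.8 and 25.4 CPM with ACBI1. In HCC44 it was at 60.5 and 72.8 CPM with DMSO and at 209 and 304 CPM with ACBI1. No groups overlapped, though the HCC44 libraries with ACBI1 differed widely from each other. CDKN2B fell 1.44-fold in H1975 (log2 fold change -0.53 ± 0.16; edgeR's quasi-likelihood test, adjusted p = 0.0348) and rose 3.84-fold in HCC44 (1.94 ± 0.17; 95% interval 1.57 to 2.31; adjusted p = 3.04e-05). The responses differed by 2.47 ± 0.23 on the log2 scale, HCC44 minus H1975 (95% interval 1.95 to 2.99; adjusted p = 2.19e-04). Genes called in opposite directions in the lines were 2.23% of all genes tested (476). The rise in HCC44 and the difference were called without each of the 8 libraries in turn, at 1.65 to 2.19 and at 2.18 to 2.72. The H1975 fall lost its call when any 1 of that line's 4 libraries was left out (adjusted p 0.0771 to 0.177), nor with scaling by library totals (-0.33, adjusted p = 0.137). CDKN2B lies at chr9:22002903-22009363 on the minus strand, and 0.765% of its 50-base stretches also occur in 1 other gene.

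CDKN2C (p18) was at 10.5 CPM in both DMSO libraries of H1975 and at 10.2 and 8.44 CPM with ACBI1. In HCC44 it was at 4.74 and 4.44 CPM with DMSO and at 10.6 and 14 CPM with ACBI1. Treated HCC44 thus reached the level that H1975 had with DMSO. CDKN2C rose 2.68-fold in HCC44 (log2 fold change 1.42 ± 0.18; 95% interval 1.02 to 1.82; edgeR, adjusted p = 1.79e-04) and was at -0.17 ± 0.17 in H1975 (-0.56 to 0.21; adjusted p = 0.483). The difference between the lines was 1.59 ± 0.25 (1.04 to 2.15; adjusted p = 0.00197), and it too was called without each library in turn. The gene lies at chr1:50960745-50974633 on the plus strand.

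CDKN2D (p19), an INK4 gene whose transcript peaks in S phase, was at 5.82 and 5.78 CPM with DMSO and 8.75 and 7.52 CPM with ACBI1 in H1975. In HCC44 it was at 4.61 and 4.97 CPM with DMSO and 3.52 and 3.9 CPM with ACBI1. The ACBI1 libraries were the higher ones in H1975 and the lower ones in HCC44, without overlap. CDKN2D rose 1.4-fold in H1975 at the edge of the threshold (log2 fold change 0.49 ± 0.17; edgeR, adjusted p = 0.0499), and was at -0.37 ± 0.18 in HCC44 (adjusted p = 0.131). The difference between the lines was -0.86 ± 0.24 (95% interval -1.39 to -0.32; adjusted p = 0.0334). The call in H1975 held in 2 of the 8 fits that each left out 1 library. Those 2 fits were without HCC44 ACBI1 replicate 1 or replicate 2. Without the low-count filter the H1975 adjusted p was 0.0871 (edgeR). As described for CCND2, p-values of that fit are not comparable with those of the main fit. The call of the difference held in 1 of 8, the fit without HCC44 ACBI1 replicate 2 (the other 7 gave an adjusted p of 0.0522 to 0.114). CDKN2D lies at chr19:10566462-10569059 on the minus strand.

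The upstream stretches of CDKN2B, CDKN2C and CDKN2D are printed because their responses differed between the lines. They were cut by the same rule from RefSeq (GRCh38.p14): CDKN2B chr9:22009364-22009555 and CDKN2D chr19:10569060-10569229 on the minus strand, and CDKN2C chr1:50960495-50960744 on the plus strand, the first of its 3 listed starts and the one whose window lies outside GENCODE exons. Capitals mark matches on either strand to GGGCGG (SP/KLF), GGAATG (TEAD), CACGTG (an E-box) and CCAAT.
CDKN2B: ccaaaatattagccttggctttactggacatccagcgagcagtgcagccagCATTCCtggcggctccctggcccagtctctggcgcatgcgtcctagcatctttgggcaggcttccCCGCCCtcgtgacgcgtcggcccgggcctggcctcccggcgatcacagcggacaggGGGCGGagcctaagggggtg
CDKN2C: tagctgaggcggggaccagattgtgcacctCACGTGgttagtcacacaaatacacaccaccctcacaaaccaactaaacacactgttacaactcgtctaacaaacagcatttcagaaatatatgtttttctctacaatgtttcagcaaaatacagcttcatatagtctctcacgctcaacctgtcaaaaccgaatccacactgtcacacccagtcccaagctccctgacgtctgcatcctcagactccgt
CDKN2D: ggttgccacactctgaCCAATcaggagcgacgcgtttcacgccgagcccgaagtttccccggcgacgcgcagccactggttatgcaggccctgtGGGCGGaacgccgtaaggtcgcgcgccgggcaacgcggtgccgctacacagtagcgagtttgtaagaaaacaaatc
CDKN2B holds 2 GGGCGG matches (33.4% of windows of its length hold 1 or more) and 1 GGAATG match (9.41%). CDKN2C holds 1 CACGTG match (6.34%), and its GC content of 45.6% was below the 66.1% of CDKN2B and the 62.4% of CDKN2D. CDKN2D holds 1 GGGCGG match (29.5%) and 1 CCAAT match (22%). None of these 3 stretches, nor that of CDKN1A, holds the letters searched for E2F (TTTCGCGC and its variant TTTGGCGC, with the further variants TTTCCCGC and also TTTGCCGC), for AP-1 (TGANTCA), for FOX factors (GTAAACA) or for the cyclic AMP element (TGACGTCA), which says only that these letters are not in the windows.

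Over the members, 3 of 9 differed in response between the lines (33.3%), 2 of them higher in HCC44, where 18.6% of all genes tested differed, 10.2% higher and 8.4% lower in HCC44. All 3 are INK4 genes. The other 6 did not pass this test, with intervals as wide as -0.12 to 1.46 for CDKN1C (0.67 ± 0.36, adjusted p = 0.228, edgeR). The DMSO and ACBI1 libraries did not overlap for 9 of 9 tested members in H1975, where 67.3% of all genes tested did not overlap, and for 6 of 9 in HCC44, where the share was 66.8%.

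With DMSO alone, the lines differed in 5 of 9 tested members (55.6%), 3 higher and 2 lower in HCC44, where 67.9% of all genes tested differed, 31.6% higher and 36.4% lower. The DMSO libraries of the lines did not overlap for 8 of 9 tested members, where 84.9% of all genes tested did not overlap. HCC44 had more CDKN2B (log2 difference 0.94 ± 0.16; edgeR, adjusted p = 5.57e-04), CDK6 (0.58 ± 0.10; adjusted p = 4.04e-04) and CDKN1B (0.51 ± 0.10; adjusted p = 0.00113). It had less CDKN2C (-1.20 ± 0.18; adjusted p = 1.26e-04) and CCND3 (-0.68 ± 0.11; adjusted p = 2.9e-04). CCND1, the inhibitors CDKN1A and CDKN1C, and CDKN2D did not pass the test, with log2 differences of -0.07, -0.30, -0.60 and -0.28. CDKN2B was thus already higher in the line where it rose, and CDKN2C lower.

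Levels of different genes were compared as CPM per kilobase of merged exons. CCND1 was the highest member in all 4 groups, at 69.9 ± 7.48 (SD, n = 2) in H1975 and 66.6 ± 2.78 in HCC44 with DMSO, and 59.1 ± 4.19 and 65.1 ± 15.9 with ACBI1. CDKN1A came next with DMSO, at 51.2 ± 3.7 in H1975 and 41.6 ± 8.23 in HCC44, and CDKN1B stood at 11.1 ± 0.407 and 15.9 ± 0.321. CDKN2B was at 8.57 ± 0.103 in H1975 and 16.4 ± 2.13 in HCC44 with DMSO, so in HCC44 its order with CDKN1B and CDK6 (13.9 ± 1.94) lay within the spread. With ACBI1 in HCC44 CDKN2B reached 63.1 ± 16.6, not apart from CCND1 and above CDKN1A at 21.8 ± 2.86. In H1975 with ACBI1 CDKN1A was at 19.5 ± 4.49 and CDKN2B at 5.94 ± 0.445. CDK6 stood at 9.29 ± 0.306 in H1975 with DMSO, CCND3 at 7.1 ± 0.217, and CDKN2D, CDKN2C and CDKN1C at 3.86 ± 0.0193, 3.17 ± 0.00929 and 1.6 ± 0.25.

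**Figure D3:**
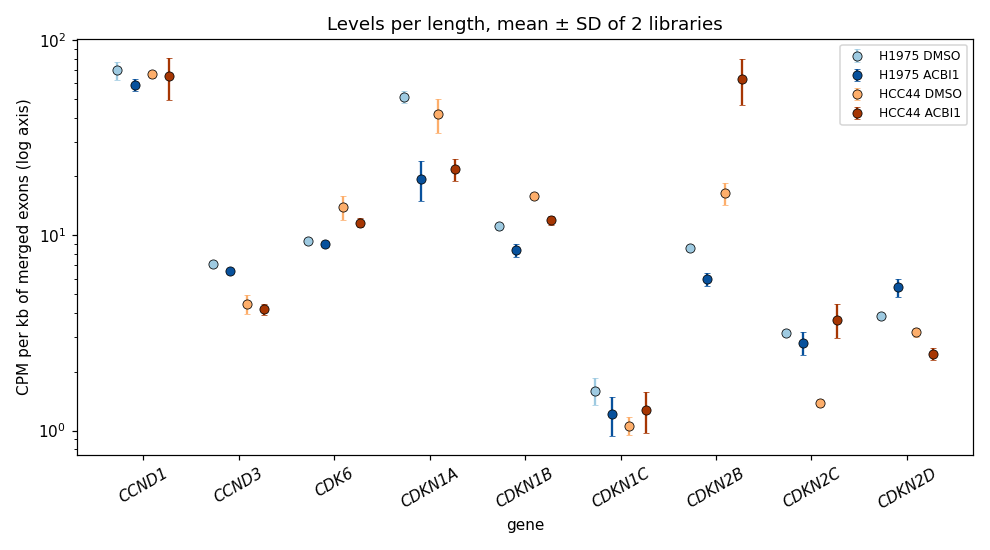
Level of each member in CPM per kilobase of merged exons (log axis) in the 4 groups; points are group means with SD bars (n = 2), and CCND2, with 0 counts in all DMSO libraries, is not drawn. CCND1 is the highest member in all 4 groups, and CDKN2B moves from 16.4 with DMSO to 63.1 with ACBI1 in HCC44.

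Genes that act with or downstream of the members were grouped in 6 lists and described by counts. Of 25 E2F-driven replication genes, which follow the release of E2F, 23 rose and 0 fell in HCC44, with a median log2 fold change of 1.04. These were 92% of the list, beside 34.9% of all genes tested. In H1975 5 rose and 0 fell (20%, beside 31.3% of all genes tested), with a median of 0.13. TK1, thymidine kinase, was at 12.2 ± 6.06 CPM (SD, n = 2) with DMSO and 51.2 ± 13.2 CPM with ACBI1 in HCC44 (log2 fold change 2.07; edgeR, adjusted p = 0.00352). ORC1, of the origin recognition complex, rose by 1.91 (adjusted p = 3.79e-05). In H1975 the largest rises were 0.63 for TYMS, thymidylate synthase (adjusted p = 0.0258), and 0.58 for RFC4, of the clamp loader (adjusted p = 0.00244). The responses of 18 of the 25 genes differed between the lines (72%, beside 18.6% of all genes tested), all 18 higher in HCC44. The H1975 count of 5 was 11 with scaling by library totals, 10 with a replicate block and 1 without H1975 DMSO replicate 1. Over all genes the H1975 calls were 7507 with library totals and 9103 with the block, beside 6663 in the main fit. With DMSO, 5 of the 25 genes were higher and 14 lower in HCC44 than in H1975 (76% called, beside 67.9% of all genes tested). The median log2 difference was -0.37. The inhibitors CDKN2B and CDKN2C thus rose in the line in which most replication genes rose.

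Of 32 genes of the retinoblastoma, E2F and G1/S machinery, 12 rose and 7 fell in HCC44 (59.4% called, beside 34.9% of all genes tested). In H1975 4 rose and 3 fell (21.9%, beside 31.3% of all genes tested). E2F2, an activating E2F, rose in both lines, by 1.23 (edgeR, adjusted p = 0.00637) in H1975 and by 2.47 (adjusted p = 1.36e-04) in HCC44. CCNA2, the S-phase cyclin A, rose by 1.78 in HCC44 (adjusted p = 0.00171). E2F7, a repressive E2F, fell by 1.45 in H1975 (adjusted p = 2.76e-05), from 59.1 ± 3.81 to 21.6 ± 2.31 CPM. FBXO4, an F-box protein, rose by 0.76 in H1975 (adjusted p = 0.00749). FBXW7, the F-box protein that targets cyclin E, fell by 0.32 in H1975 (adjusted p = 0.0486) and fell by 0.57 in HCC44 (adjusted p = 0.00238). CCNH, cyclin H, fell by 0.73 in HCC44 (adjusted p = 2.17e-04). With scaling by library totals the H1975 count was 12 higher and 1 lower, with a replicate block 8 and 4, and without any 1 of the 4 H1975 libraries 3 and 1. The 7 falls in HCC44 were 2 without DMSO replicate 2 and 3 without ACBI1 replicate 2 of that line.

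CDKN1A is a p53 target, and 24 other p53 targets were listed, of which 23 were tested. In H1975 5 rose and 9 fell (median -0.17), with 60.9% called beside 31.3% of all genes tested. In HCC44 5 rose and 5 fell (median 0.02), with 43.5% called beside 34.9% of all genes tested. ZMAT3 rose by 0.92 (edgeR, adjusted p = 0.00191) in H1975, where TP53INP1 fell by 1.33 (adjusted p = 0.00227) and PLK2 fell by 1.15 (adjusted p = 0.00177). In HCC44 TP53I3 rose by 1.34 (adjusted p = 1.63e-04) and PHLDA3 fell by 1.27 (adjusted p = 1.08e-04). GDF15, a stress-induced cytokine, fell by 2.18 in HCC44 (adjusted p = 1.36e-06), from 178 ± 8.76 to 39.4 ± 5.87 CPM. DDB2, a DNA repair factor, rose in both lines, by 0.72 (adjusted p = 0.0363) and 0.93 (adjusted p = 0.0109). The list thus moved in both directions, and its median in H1975 turned to 0.04 with scaling by library totals. The 14 calls in H1975 were 8 without DMSO replicate 2 or ACBI1 replicate 1, and 9 without DMSO replicate 1 or ACBI1 replicate 2.

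CDKN2B is a known target of SMAD factors, the mediators of TGF-beta. Of 16 other SMAD targets 0 rose and 9 fell in H1975 (median -0.55), while 9 rose and 3 fell in HCC44 (median 0.69). The shares called were 56.2% in H1975 and 75% in HCC44, beside 31.3% and 34.9% of all genes tested. Responses of 12 of the 16 differed between the lines (75%, beside 18.6% of all genes tested), all 12 higher in HCC44. TGFBI, a secreted matrix protein, was at 1762 ± 55.7 CPM with DMSO and 369 ± 28.4 CPM with ACBI1 in H1975 (log2 fold change -2.26; edgeR, adjusted p = 0.00143). In HCC44 ID2, an inhibitor of basic helix-loop-helix factors, rose by 2.41 (adjusted p = 4.15e-04) and COL1A1 by 1.91 (adjusted p = 0.0055), while CCN2 fell by 1.25 (adjusted p = 0.0391) and TAGLN fell by 0.58 (adjusted p = 0.0125). COL1A1 is also on the fibroblast list, of which DCN was at 0 in all groups; the part of other cells in these changes was not tested. The 9 falls in H1975 were 5 with scaling by library totals, 4 without H1975 DMSO replicate 1 and 5 without any 1 of the other 3 H1975 libraries. Without HCC44 ACBI1 replicate 2 the HCC44 list had 6 rises, 1 fall and a median of 0.30, and without HCC44 DMSO replicate 1 it had 7 rises and 0 falls.

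**Figure D4:**
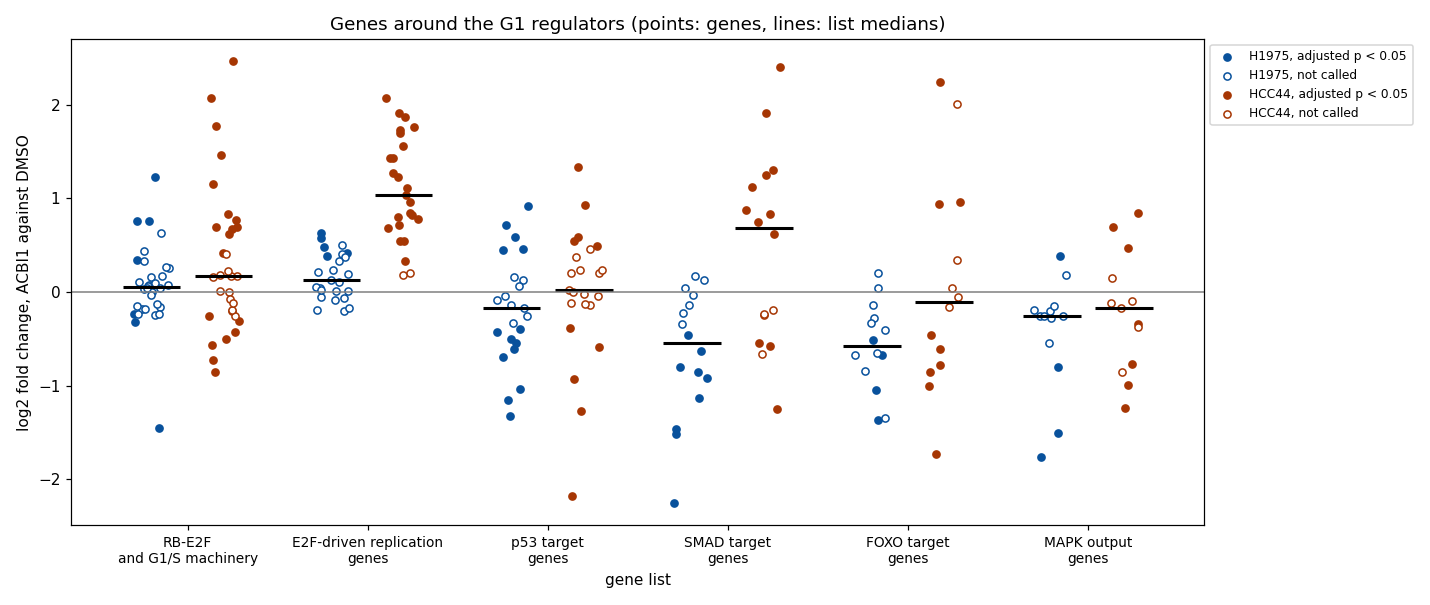
Log2 fold change of ACBI1 against DMSO (vertical axis) for the genes of the 6 lists in H1975 (blue) and HCC44 (red); points are genes, filled where the adjusted p is under 0.05, and black lines are list medians. The median of the E2F-driven replication genes is 0.13 in H1975 and 1.04 in HCC44, and that of the SMAD targets -0.55 and 0.69 (0.30 without HCC44 ACBI1 replicate 2).

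FOXO factors drive CDKN1B in many cells, and MAPK signals induce CCND1. Of 14 FOXO targets 0 rose and 4 fell in H1975 (median -0.58), and 3 rose and 6 fell in HCC44 (median -0.10). The shares called were 28.6% in H1975 and 64.3% in HCC44, beside 31.3% and 34.9% of all genes tested. CITED2 fell by 1.37 in H1975 (edgeR, adjusted p = 0.00561) and fell by 1.01 in HCC44 (adjusted p = 0.0167). CCNG2, a cyclin tied to cell cycle arrest, fell by 1.05 in H1975 (adjusted p = 0.0129) and rose by 0.96 in HCC44 (adjusted p = 0.0206). PIK3IP1, an inhibitor of PI3K, rose by 2.25 in HCC44 (adjusted p = 2.14e-04), and TRIB1 fell by 1.73 (adjusted p = 0.0237). The H1975 count of 4 FOXO targets was 9 with a replicate block, 8 with each line fitted alone, 7 without any 1 of the 4 HCC44 libraries and 2 without H1975 DMSO replicate 2. In HCC44 the FOXO median turned to 0.07 without DMSO replicate 1 and was -0.42 without DMSO replicate 2, and the 6 falls were 2 without ACBI1 replicate 1. Of 13 MAPK output genes 1 rose and 3 fell in H1975 (median -0.26), with 30.8% called beside 31.3% of all genes tested. In HCC44 3 rose and 4 fell (median -0.17), with 53.8% called beside 34.9% of all genes tested. In H1975 the MAPK median was -0.05 with scaling by library totals, and 6 fell with a replicate block. Over all genes the block called 9103 in H1975, beside 6663 in the main fit. DUSP4, a MAPK phosphatase, fell by 1.51 in H1975 (adjusted p = 9.85e-05) and fell by 1.24 in HCC44 (adjusted p = 1.78e-04), while ETV4 rose in both, by 0.38 (adjusted p = 0.0124) and 0.85 (adjusted p = 9.28e-05). SPRY4 fell by 0.80 in H1975 (adjusted p = 5.76e-04). In HCC44 PHLDA1 rose by 0.70 (adjusted p = 7.13e-04) and FOSL1, an AP-1 subunit, fell by 0.99 (adjusted p = 0.00286).

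The tested genes just before and after every member in order of RefSeq start were also read. They are not always the nearest by distance. Of these 20 genes 7 were called in H1975 (35%, beside 31.3% of all genes tested) and 10 in HCC44 (50%, beside 34.9%). Gaps are between RefSeq gene spans. Next to CDKN1B, at a RefSeq gap of 122 bases, GPR19, an orphan receptor gene, rose where CDKN1B fell. In GENCODE CDKN1B begins upstream of its RefSeq start, so this gap does not hold for the GENCODE span, though no other gene shares its GENCODE exon bases. GPR19 was at 1.31 ± 0.0941 CPM (SD, n = 2) with DMSO and 4.51 ± 0.0594 CPM with ACBI1 in H1975. Its log2 fold change there was 1.78 ± 0.25 (edgeR, adjusted p = 5.33e-04). In HCC44 it went from 0.378 ± 0.13 to 2.25 ± 0.377 CPM (2.57 ± 0.29; adjusted p = 9.2e-05). CDKN2B-AS1, the antisense RNA gene whose span holds CDKN2B, rose in HCC44, from 3.89 ± 0.262 to 9.12 ± 0.474 CPM (1.23 ± 0.18; adjusted p = 4.5e-04), and was at 0.12 ± 0.19 in H1975 (adjusted p = 0.661). Its response differed between the lines by 1.11 (adjusted p = 0.0139), with the sign of the difference for CDKN2B. CPNE5, downstream of CDKN1A, fell by 1.54 in H1975 (adjusted p = 4.5e-04) and fell by 3.30 in HCC44 (adjusted p = 2.01e-05), while SRSF3 on the other side did not pass the test. BYSL, next to CCND3, rose by 0.43 in H1975 (adjusted p = 0.00521) and fell by 0.41 in HCC44 (adjusted p = 0.00532). FAF1, 478 bases from CDKN2C, rose in both lines by 0.30 and 0.33 (adjusted p = 0.043 and 0.0259).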

How the data were processed

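RNA of 8 libraries was analysed, 2 in each of 4 groups, grouped by the labels' cell line and treatment. The authors deposited counts of reads per gene, 1 table per library. The submitters' processing notes name TopHat2 2.1.1, HTSeq 0.11.0 and hg38, without role or order, and the strand setting and annotation release are not given in the sources used here. The 5 summary rows (14.3 to 15.8% of each table) were left out. Genes were kept by filterByExpr (minimum count 10), leaving 21307, and scaled by TMM. edgeR 4.0.16 in R 4.3.3 fitted a mean per group over all 8 libraries (4 residual degrees of freedom, robust quasi-likelihood test, two-sided). The fit gave each line's response, the difference HCC44 minus H1975, and the DMSO baseline. Benjamini-Hochberg adjustment ran over all genes, and standard errors are the size of the log2 fold change over the square root of F.

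Exons, positions and lengths came from GENCODE 29, and promoter windows from RefSeq (GRCh38.p14), which had entries for 7 of the 10 members. Neighbours and gaps came from RefSeq gene spans, with genes ordered by start. Named genes were all members and up to 2 called genes per direction, line and list (mean of at least 5 CPM in a group). The tested neighbours by start and, for 4 members, the 3 genes most like them were also named. Some genes the rule picks may not be reported here. The rule for the members names gene symbols and uses no measured value, but the members and lists were chosen with earlier results of these data known. Alternatives covered scaling, filtering, DESeq2 1.42.0, dispersion, each line alone, a replicate block and leaving out each library. The edgeR steps were run on simulated counts in which few genes changed, in a single group. That run does not cover changes as wide as those seen here.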

Additional observations from a re-analysis of the deposited data

Results flagged for a closer look

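The responses of 3 members differed between the lines by the test of the difference itself (edgeR's quasi-likelihood test, Benjamini-Hochberg adjusted p, HCC44 minus H1975). The log2 difference was 2.47 for CDKN2B (adjusted p = 2.19e-04), 1.59 for CDKN2C (adjusted p = 0.00197) and -0.86 for CDKN2D (adjusted p = 0.0334). Leaving out each of the 8 libraries in turn, the difference was called in 8 of 8 fits for CDKN2B and CDKN2C and in 1 of 8 for CDKN2D. The values in every library are given with these genes above.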

How the results depend on the processing

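Counts per gene are deep here, and 2 libraries per group limit the precision. With library totals in place of TMM factors the median gene shifted by 0.194 on the log2 scale in H1975, 0.087 in HCC44, -0.114 in the difference and -0.116 in the DMSO comparison. The share of calls that were higher then went from 46.6 to 72.3% in H1975, 50 to 60.5% in HCC44 and 54.9 to 40.5% in the difference. In H1975 that scaling called 2 members, 13 genes of the G1/S machinery, 11 E2F-driven replication genes and 5 SMAD targets. Over all genes it called 7507 there, beside 6663 in the main fit. It turned the sign of CCND3 (0.084), CDK6 (0.153) and CDKN2C (0.030) in H1975, CCND1 (0.057) and CCND3 (0.007) in HCC44, and CCND3 in the difference (-0.077). None of these was called. Upper-quartile factors gave 8 E2F-driven replication genes in H1975, CDK6 at 0.022 in H1975 and CCND1 at 0.017 in HCC44. CCND3 in the difference was -0.001 with RLE factors and with DESeq2. With each line fitted alone 8 E2F-driven replication and 8 FOXO genes were called in H1975.

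Replicate numbers are only numbers in the labels: deviations of same-numbered libraries correlated at 0.374 in H1975 and 0.109 in HCC44. A replicate block gave 12 genes of the G1/S machinery, 10 E2F-driven replication, 9 FOXO and 7 MAPK genes in H1975. Calls over all genes rose as well, to 9103 in H1975, beside 6663 in the main fit. In the difference the block called 6358 of all genes. The block also called CDK6 in HCC44 (-0.26, adjusted p = 0.0115, edgeR) and CDKN1A in the difference (0.49, adjusted p = 0.0123), with CDKN1A (-0.32, adjusted p = 0.00625) and CDKN1C (-0.61, adjusted p = 0.024) in the DMSO comparison, and no member lost its call.

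Leaving out each library in turn leaves a group with 1 library, assumed to vary like the others, and the filter then admits CCND2 in some fits, so that it can be among the members counted. Calls in H1975 ranged over 1 to 5 members, 3690 to 7161 of all genes, 4 to 8 genes of the G1/S machinery, 1 to 6 E2F-driven replication genes, 8 to 14 p53 targets, 4 to 9 SMAD targets and 2 to 7 FOXO targets. In HCC44 they ranged over 4945 to 7342 of all genes, 7 to 11 SMAD and 5 to 9 FOXO targets, and in the difference over 2341 to 4134 of all genes. Log2 values that crossed 0 ranged from -0.089 to 0.033 for CDK6 in H1975. In HCC44 they ranged from -0.31 to 0.200 for CCND1, -0.19 to 0.033 for CCND3 and -0.005 to 0.49 for CDKN1C. In the difference they ranged from -0.062 to 0.45 for CCND1, -0.072 to 0.15 for CCND3 and -0.12 to 0.048 for CDKN1B, and in the DMSO comparison from -0.12 to 0.035 for CCND1. Of the member values, 249 of these fits kept direction and call, 22 lost the call, 4 gained it and 13 changed sign. Under the other alternatives 283 kept both, 3 lost the call, 10 gained it and 10 changed sign. The cause was not tested.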

Other observations

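Across the 8 libraries and 12670 genes whose mean reached 5 CPM in at least 1 group, the genes with levels most like those of 4 members are given as a description, since the points share line and treatment. For CDKN1A they were B3GNT3, IL24 and TRPC4AP, with Pearson's r of log2 CPM of 0.988, 0.987 and 0.980. For CDKN1B they were MARCHF7 and LINC01748, each at 0.991, and PEBP1 at 0.989. CDK6 was most like CEBPZ (0.991), PPP3R1 (0.984) and BPNT2 (0.981). For CCND1 the values were lower: 0.935 for STK25, 0.924 for UCKL1 and 0.875 for ARFRP1.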
